A study of Mus musculus with 4 samples.

Results

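The antigen receptors of B cells and T cells, and the kinases, adaptors, coreceptors and transcription factors that work with them, were followed through 32 genes in inguinal white adipose tissue (ingWAT) of cold-exposed mice. The 32 genes were given as a list of symbols, and each symbol was found among the 19030 genes listed. They were sorted here into 13 B cell genes, 16 T cell genes and 3 genes grouped as shared. No measured value was part of the rule, but the members were chosen with earlier results of these data known. ingWAT is a subcutaneous fat depot that also holds immune cells. Its RNA was sequenced in 2 libraries from Ctrl mice, which carry the Oct3 fl/fl allele, and in 2 libraries from cKO mice, which carry Oct3 fl/fl with an Adiponectin-Cre transgene. The Cre is driven by the promoter of an adipocyte gene, so the deletion was aimed at adipocytes and not at the lymphocytes described here. All animals were C57BL/6 mice, 3 months old and kept at 4°C, and both genotypes carried the floxed allele. Neither the number of mice behind a library nor whether the libraries of a genotype came from separate mice is stated, so the p-values below measure only the spread between these libraries.

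B cells recognise antigen with a surface immunoglobulin that signals through the CD79a and CD79b chains. T cells use a T cell receptor that signals through the CD3 chains and CD247. In both lineages a Src family kinase (Blk in B cells, Lck in T cells) phosphorylates the tyrosine motifs of these chains, a kinase of the Syk family (Syk or Zap70) binds to them, and an adaptor (Blnk or Lat) gathers the enzymes that carry the signal on. In mice the inguinal lymph node lies within the inguinal fat pad, and blood and the fat stroma hold further lymphocytes. The rearranged immunoglobulin and T cell receptor genes were not analysed here.

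FPKM, a count of fragments divided by transcript length and library size, is per length, so levels can be set side by side between genes. The summed FPKM lay between 484152 and 497839, and the depth estimated from the steps of the values was 17400000 to 18150000 reads per library. *Slc22a3*, the gene of Oct3, stood at an FPKM of 16.95 and 17.68 in Ctrl and 9.07 and 9.50 in cKO (log2 fold change -0.83, limma adjusted p = 0.000439). Adipocyte markers were present in every library, with a sum of 8 genes of 21490 and 21741 FPKM in Ctrl and 17573 and 17865 FPKM in cKO. The Ctrl libraries carried a summed FPKM of 2511 and 1687 for 13 skeletal muscle genes, against 11.9 and 9.35 in the cKO libraries, so that the amount of muscle RNA moved with the genotype. Its part in the values below was not tested. In bulk tissue, more cells of a type and more RNA per cell cannot be told apart.

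Of the 32 genes, 27 were higher in cKO ingWAT at an adjusted p under 0.05, 0 were lower, and 5 did not pass (*Cd247*, *Cd8a*, *Cd6*, *Bcl11b* and *Cd28*). Among all 12658 genes tested, 12.0% were called higher and 13.8% lower, 25.8% in all. The log2 fold changes ranged from 0.09 (*Cd247*) to 0.77 (*Cd3d*). The median log2 fold change on the log2(FPKM + 1) scale was 0.51 for the B cell genes, 0.56 for the T cell genes and 0.54 for the shared genes, against -0.006 for all genes tested, and no member reached a log2 fold change of 1. In 31 of the 32 genes both cKO libraries lay above both Ctrl libraries, which was so for 31.9% of all genes tested, while 34.6% of them had both cKO libraries below both Ctrl libraries. The share of all genes tested called higher was smaller when either Ctrl library was left out. The number of members called was smaller as well, for a reason that was not tested. Without Ctrl replicate 1 it was 3 (*Cd79a*, *Cd79b* and *Syk*) and without Ctrl replicate 2 it was 13, while all 32 log2 fold changes stayed above 0 in both cases.

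**Figure D1:**
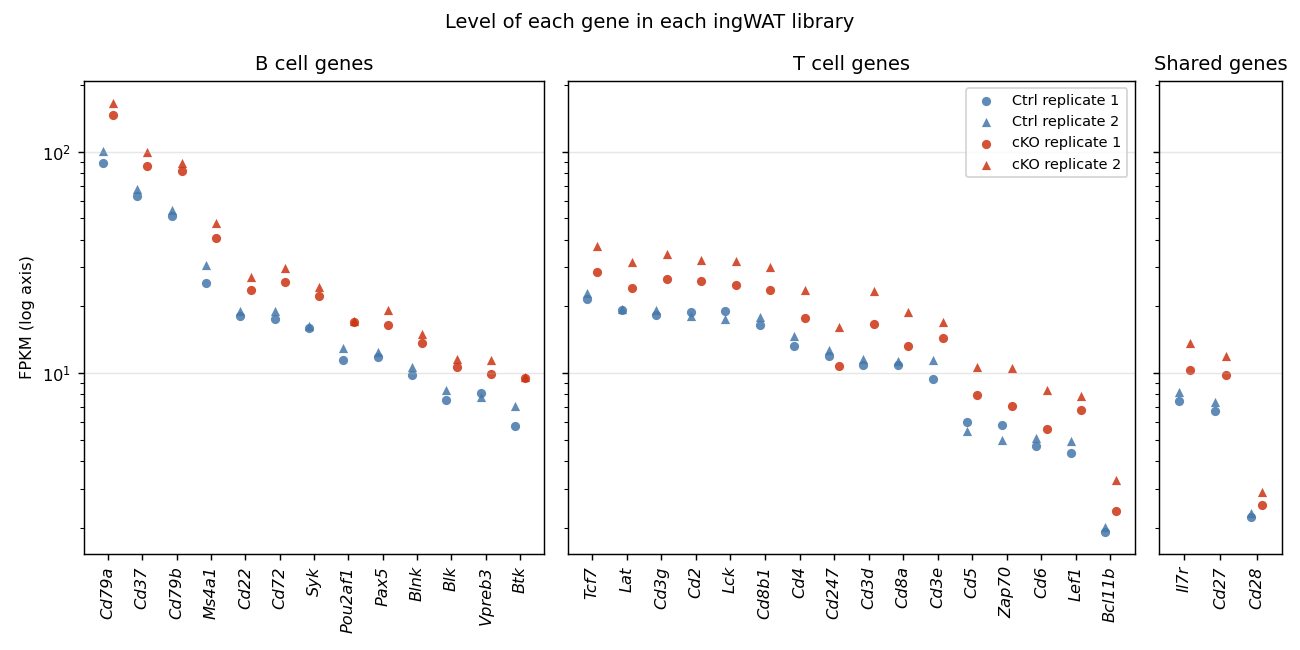
The FPKM of the 32 genes in each of the 4 libraries, on a log axis, ordered within each panel by the Ctrl mean. Blue marks are Ctrl and red marks cKO libraries, circles are replicate 1 and triangles replicate 2. The red marks lie above the blue ones for every gene except *Cd247*, and *Cd79a* has the highest level of all.

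The chains that carry the B cell receptor signal had the smallest adjusted p-values of all members, and *Cd79a* had the highest level. *Cd79a* (Entrez gene 12518, chr7:24897497-24901858 in GRCm38.p6) stood at an FPKM of 88.78 and 100.87 in Ctrl and 147.07 and 166.79 in cKO. *Cd79b* (Entrez gene 15985, chr11:106311341-106314562) stood at 51.06 and 54.57 in Ctrl and at 81.84 and 89.27 in cKO. For both chains the genotypes were well apart. The log2 fold change of *Cd79a* was 0.72 (standard error 0.0865, limma adjusted p = 0.00165) and that of *Cd79b* 0.69 (standard error 0.0670, limma adjusted p = 0.000850). These chains pair in the receptor, and the ratio of *Cd79a* to *Cd79b* FPKM was 1.74 and 1.85 in Ctrl and 1.80 and 1.87 in cKO, so it overlapped between the genotypes.

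The B cell kinases and their adaptor rose with log2 fold changes from 0.43 to 0.52, and their difference from the receptor chains was not tested. *Syk*, the kinase that binds to the phosphorylated chains, was at an FPKM of 15.91 and 16.24 in Ctrl and 22.36 and 24.44 in cKO (log2 fold change 0.51, standard error 0.0669, limma adjusted p = 0.00223). *Btk*, which activates phospholipase C gamma, was at 5.75 and 7.06 in Ctrl and 9.50 and 9.63 in cKO (log2 fold change 0.52, standard error 0.0970, limma adjusted p = 0.00884). *Blk*, a Src family kinase of B cells, was at 7.55 and 8.39 in Ctrl and 10.68 and 11.52 in cKO (log2 fold change 0.43, standard error 0.0798, limma adjusted p = 0.00838). *Blnk*, the adaptor between Syk and phospholipase C gamma, was at 9.75 and 10.65 in Ctrl and 13.72 and 15.07 in cKO (log2 fold change 0.46, standard error 0.0776, limma adjusted p = 0.00606). For each of these 4 genes both cKO libraries lay above both Ctrl libraries, as was so for 31.9% of all genes tested. Myeloid cells also use *Syk*, *Btk*, *Blnk* and *Cd37*, and the median log2 fold change of these 4 genes was 0.50, beside 0.53 for the other 9 B cell genes. The summed FPKM of 12 macrophage markers was 1366 and 1184 in Ctrl and 1217 and 1228 in cKO, with members called in both directions, and 5 of 6 neutrophil markers tested were higher. The part of myeloid cells in the values of these 4 genes was not tested.

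All 4 surface molecules of B cells rose. *Ms4a1*, which encodes CD20, was at an FPKM of 25.40 and 30.73 in Ctrl and 40.74 and 47.53 in cKO (log2 fold change 0.64, standard error 0.106, limma adjusted p = 0.00569). *Cd37*, a tetraspanin, was at 63.17 and 67.56 in Ctrl and 85.78 and 99.77 in cKO (log2 fold change 0.50, limma adjusted p = 0.00550). *Cd22* and *Cd72* encode inhibitory coreceptors that recruit phosphatases. *Cd72* was at 17.60 and 19.06 in Ctrl and 25.72 and 29.77 in cKO (log2 fold change 0.57, limma adjusted p = 0.00345), and *Cd22* was at 18.06 and 19.01 in Ctrl and 23.66 and 27.02 in cKO (log2 fold change 0.43, limma adjusted p = 0.00775). The inhibitory coreceptors therefore moved in the same direction as the receptor chains.

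*Pax5*, the transcription factor that holds B cell identity, was at an FPKM of 11.76 and 12.38 in Ctrl and 16.45 and 19.28 in cKO (log2 fold change 0.53, standard error 0.0856, limma adjusted p = 0.00518). *Pou2af1*, the coactivator that binds octamer factors in B cells, was at 11.43 and 12.90 in Ctrl and 16.92 and 17.19 in cKO (log2 fold change 0.46, limma adjusted p = 0.00519). *Vpreb3*, related to the surrogate light chain of developing B cells, had the smallest difference of the B cell genes. It was at 8.12 and 7.80 in Ctrl and 9.94 and 11.44 in cKO (log2 fold change 0.38, standard error 0.0838, limma adjusted p = 0.0162). *Vpreb3* was also the gene with the fewest reads among the 18 members whose transcript length could be matched, with 82 reads in its lowest library and a counting error of 11.0%, and it did not pass without cKO replicate 2.

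Of the T cell receptor chains 3 of 4 rose. *Cd3d* (Entrez gene 12500, chr9:44981769-44987052) was at an FPKM of 10.82 and 11.59 in Ctrl and 16.60 and 23.45 in cKO (log2 fold change 0.77, standard error 0.142, limma adjusted p = 0.00852). *Cd3g* (Entrez gene 12502, chr9:44969572-44980431) was at 18.34 and 19.28 in Ctrl and 26.45 and 34.47 in cKO (log2 fold change 0.66, standard error 0.115, limma adjusted p = 0.00688). *Cd3e* (Entrez gene 12501, chr9:44998735-45009663) was at 9.42 and 11.42 in Ctrl and 14.39 and 16.99 in cKO (log2 fold change 0.55, standard error 0.109, limma adjusted p = 0.0111). These 3 genes lie side by side, with 1337 bases between *Cd3g* and *Cd3d* and 11682 bases between *Cd3d* and *Cd3e*. The chain with the most tyrosine motifs, *Cd247* (Entrez gene 12503, chr1:165779952-165871153), was at 11.88 and 12.76 in Ctrl and at 10.75 and 16.12 in cKO. Its Ctrl libraries lay between its cKO libraries, and its log2 fold change of 0.09 did not pass (95% interval -0.28 to 0.47, limma adjusted p = 0.712). The ratio of *Cd247* to *Cd3e* FPKM, chosen after the values were seen, was 1.26 and 1.12 in Ctrl and 0.747 and 0.949 in cKO, and the difference between these genes was not tested. The ratio of *Cd3g* to *Cd3e* was 1.95 and 1.69 in Ctrl and 1.84 and 2.03 in cKO. Natural killer cells also use *Cd247*. Without cKO replicate 2 its log2 fold change was -0.18, and without cKO replicate 1 it passed as higher. Without cKO replicate 2 *Cd3e* did not pass (limma adjusted p = 0.0640), and *Cd3d* passed with a log2 fold change of 0.53.

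The coreceptors bind MHC molecules beside the receptor and bring Lck to it. *Cd4*, the coreceptor of helper T cells, was at an FPKM of 13.26 and 14.67 in Ctrl and 17.65 and 23.64 in cKO (log2 fold change 0.52, standard error 0.127, limma adjusted p = 0.0241). Without cKO replicate 2 it was 0.32 and did not pass (limma adjusted p = 0.0634). The chains of the cytotoxic T cell coreceptor, *Cd8b1* and *Cd8a*, fell on different sides of the threshold although both were above Ctrl in both cKO libraries. *Cd8b1* was at 16.46 and 17.88 in Ctrl and 23.68 and 30.16 in cKO (log2 fold change 0.61, standard error 0.110, limma adjusted p = 0.00774). *Cd8a* was at 10.91 and 11.31 in Ctrl and 13.19 and 18.81 in cKO (log2 fold change 0.47, standard error 0.143, 95% interval 0.13 to 0.81, limma adjusted p = 0.0505). The ratio of *Cd8a* to *Cd8b1* was 0.663 and 0.633 in Ctrl and 0.557 and 0.624 in cKO. The ratio of *Cd4* to *Cd8a* was 1.22 and 1.30 in Ctrl and 1.34 and 1.26 in cKO, with overlapping genotypes.

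Of the T cell kinases and adaptor all 3 rose. *Lck*, the kinase that starts the signal, was at an FPKM of 18.98 and 17.45 in Ctrl and 24.96 and 32.14 in cKO (log2 fold change 0.61, standard error 0.114, limma adjusted p = 0.00862). *Zap70*, the Syk family kinase of T cells, was at 5.79 and 4.99 in Ctrl and 7.11 and 10.50 in cKO (log2 fold change 0.60, standard error 0.159, limma adjusted p = 0.0325). *Lat*, the membrane adaptor that Zap70 phosphorylates, was at 19.23 and 19.45 in Ctrl and 24.10 and 31.56 in cKO (log2 fold change 0.49, standard error 0.115, limma adjusted p = 0.0204). In each of them cKO replicate 2 was the highest library by a clear margin, and *Zap70* did not pass when that library was left out.

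Among the T cell surface molecules *Cd2*, an adhesion receptor, and *Cd5*, an inhibitor of receptor signalling, rose. *Cd2* was at an FPKM of 18.78 and 18.12 in Ctrl and 25.95 and 32.24 in cKO (log2 fold change 0.62, standard error 0.0992, limma adjusted p = 0.00485), and *Cd5* was at 6.03 and 5.48 in Ctrl and 7.93 and 10.67 in cKO (log2 fold change 0.60, standard error 0.128, limma adjusted p = 0.0148). *Cd6*, the neighbour and relative of *Cd5* on chromosome 19, was at 4.67 and 5.10 in Ctrl and 5.59 and 8.37 in cKO and did not pass (log2 fold change 0.42, limma adjusted p = 0.0946). Of the transcription factors, *Tcf7* and *Lef1*, which bind the same DNA element and are highest in naive and memory T cells, rose. *Tcf7* was at 21.63 and 22.97 in Ctrl and 28.51 and 37.63 in cKO (log2 fold change 0.54, limma adjusted p = 0.0170), and *Lef1* was at 4.33 and 4.91 in Ctrl and 6.82 and 7.90 in cKO (log2 fold change 0.57, standard error 0.0977, limma adjusted p = 0.00628). *Bcl11b*, which sets T cell identity in the thymus, had the lowest Ctrl level of the 32 genes, at 1.91 and 2.01 in Ctrl and 2.38 and 3.27 in cKO (log2 fold change 0.36, limma adjusted p = 0.0885).

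The remaining receptors were those grouped as shared. *Cd27*, a costimulatory receptor of the TNF receptor family, was at an FPKM of 6.70 and 7.37 in Ctrl and 9.81 and 11.93 in cKO (log2 fold change 0.56, standard error 0.101, limma adjusted p = 0.00784). *Il7r*, the receptor of the survival cytokine interleukin 7, was at 7.48 and 8.20 in Ctrl and 10.33 and 13.63 in cKO (log2 fold change 0.54, standard error 0.122, limma adjusted p = 0.0176). *Cd28*, the main costimulatory receptor of T cells, was at 2.23 and 2.34 in Ctrl and 2.52 and 2.90 in cKO and did not pass (log2 fold change 0.17, limma adjusted p = 0.262).

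**Figure D2:**
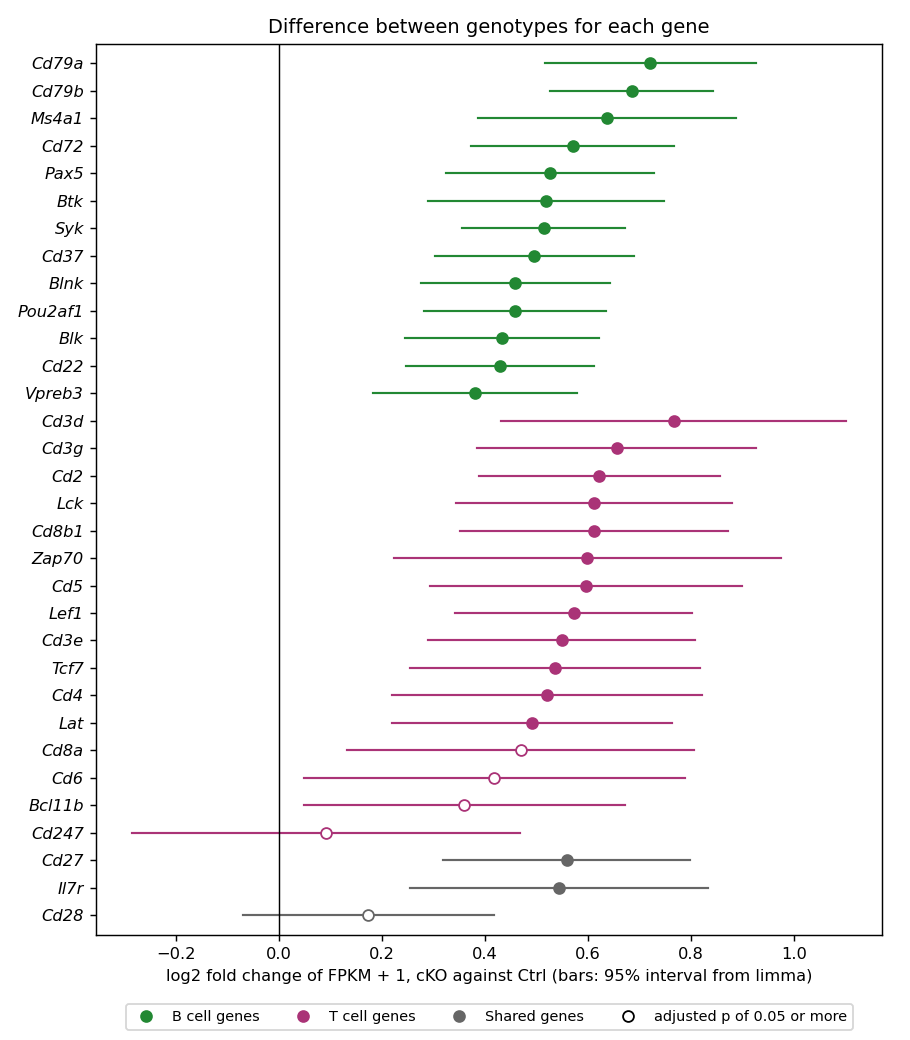
The difference between cKO and Ctrl for each gene, as a log2 fold change of FPKM + 1, with the 95% interval from limma, ordered by size within the B cell, T cell and shared genes. Filled marks passed at an adjusted p under 0.05 and open marks did not, and the intervals of *Cd247* and *Cd28* cross 0.

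The promoters of the members were searched for short motifs of lymphocyte transcription factors, because most members moved together. The RefSeq promoter table (GRCm38.p6) held 24 of the 32 genes (10 B cell, 12 T cell and 2 shared genes), and 15 motifs were sought on both strands of the 250 bases before the start. The E box CAGGTG stood in the promoters of 11 of the 24 genes (5 B cell and 6 T cell genes), against 19.4% of all 27025 genes with a promoter. The Ets motif CAGGAAG stood in 10 of the 24, against 12.1%. The octamer ATGCAAAT, which the partners of the Pou2af1 coactivator bind, stood in 2, *Blnk* and *Vpreb3*, against 1.81%. The following windows are shown since they carry these motifs upstream of a B cell receptor chain, of the octamer-bearing *Vpreb3*, and of *Cd3d* and *Cd3g*, whose starts point away from each other. Each is on the strand of its gene, and capitals mark the E box, the Ets motif and the octamer, or their reverse complements (CACCTG for the E box, CTTCCTG for the Ets motif and ATTTGCAT for the octamer).
Cd79a, chr7:24897247-24897376, plus strand: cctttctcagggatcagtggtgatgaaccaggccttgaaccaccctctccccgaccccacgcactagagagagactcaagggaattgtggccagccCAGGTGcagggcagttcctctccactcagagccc
Vpreb3, chr10:75948130-75948299, plus strand: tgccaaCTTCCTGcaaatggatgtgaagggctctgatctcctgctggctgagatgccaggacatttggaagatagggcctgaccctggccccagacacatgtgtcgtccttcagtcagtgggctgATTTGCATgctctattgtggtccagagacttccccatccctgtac
Cd3d, chr9:44981636-44981765, plus strand: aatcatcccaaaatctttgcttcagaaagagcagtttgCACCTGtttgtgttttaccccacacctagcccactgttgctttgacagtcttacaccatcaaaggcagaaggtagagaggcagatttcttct
Cd3g, chr9:44980432-44980581, minus strand: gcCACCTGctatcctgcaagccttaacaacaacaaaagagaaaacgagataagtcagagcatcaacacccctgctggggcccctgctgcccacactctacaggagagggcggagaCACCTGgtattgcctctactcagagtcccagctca
The *Cd79a* window holds 1 E box, the *Cd3d* window 1, and the *Cd3g* window 2. The *Vpreb3* window lies inside the annotated span of that gene, chr10:75943024-75949657, so it precedes a start within that span.

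Of the other motifs, GAGGAAG shares the letters GGAAG with the Ets motif. The Ikaros motif TGGGAA stood in 9 of the 24 against 24.1% of all genes with a promoter, and GAGGAAG (PU.1) in 6 against 12.0%. TCAAAG (TCF and LEF factors) stood in 5 against 15.8%, and CCCNNGGG (EBF core) in 4 against 13.4%. TGTGGT (RUNX) stood in 3 against 15.9%, and TATAAA in 2 against 14.3%. The letters AGATAA, read by factors of the GATA family, stood in 1 against 11.4%, and the Ets variant CCGGAAG in 1 against 7.83%. There was a match of GGGNNTTCC (NF-kB) in 1 promoter against 5.61%, of TGACATCA (a CRE variant) in 1 against 3.41%, of TGACGTCA (the CRE) in 1 against 1.77%, and of the longer form of the EBF motif, which contains the core, in 1 against 0.914%. These matches describe letters in a window and were not tested.

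All 13 B cell genes and 12 of the 16 T cell genes passed as higher, and the lineages were not tested against each other. With no filter on low values, 6 B cell genes and 0 T cell genes passed. The summed FPKM of the 13 B cell genes was 334 and 367 in Ctrl and 504 and 569 in cKO, a ratio of means of 1.53. The summed FPKM of the 16 T cell genes was 192 and 199 in Ctrl and 256 and 338 in cKO, a ratio of means of 1.52. The ratio of the B cell sum to the T cell sum was 1.74 and 1.84 in Ctrl and 1.97 and 1.68 in cKO, so the genotypes overlapped.

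The lineages differed in the spread between the cKO libraries. All 32 genes were higher in cKO replicate 2 than in cKO replicate 1, as were 8004 of the 12658 genes tested. Over all genes tested the median of replicate 2 to replicate 1 in cKO was 1.03. The ratio of replicate 2 to replicate 1 had a median of 1.13 over the B cell genes, with a range from 1.01 to 1.17, and a median of 1.33 over the T cell genes, with a range from 1.16 to 1.50. For 15 of the 16 T cell genes it was above that of every B cell gene, *Lef1* being the exception. In Ctrl the same ratio had a median of 1.08 for B cell genes and 1.06 for T cell genes. The genes of a library share its RNA, and with 2 libraries the pattern was given no test. The standard errors of the T cell genes carry this spread, and without cKO replicate 2 the members called were 12 B cell, 9 T cell and 2 shared genes.

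**Figure D3:**
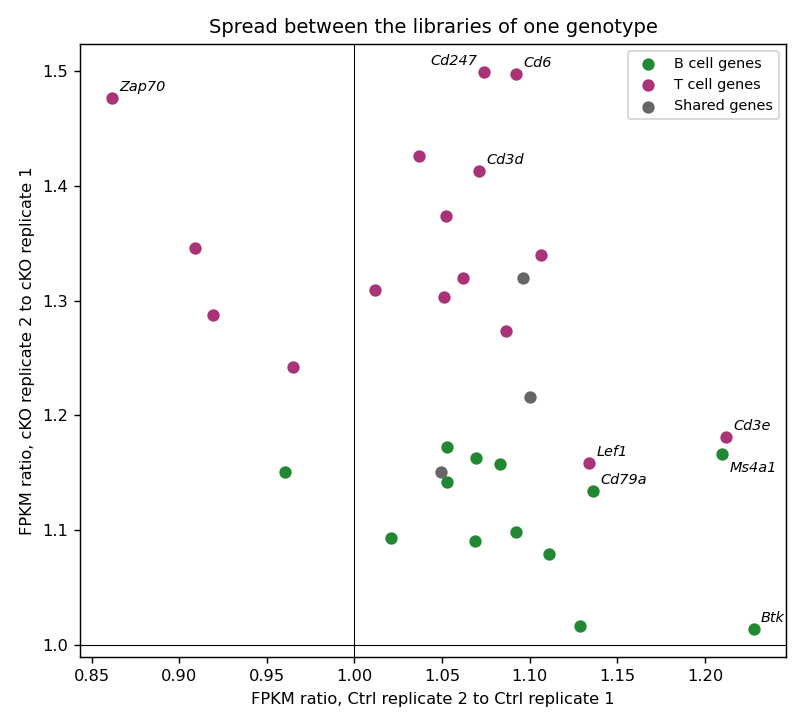
For each gene, the FPKM of replicate 2 divided by that of replicate 1 in the Ctrl libraries (horizontal axis) and in the cKO libraries (vertical axis), with lines at a ratio of 1. The T cell genes lie at cKO ratios from 1.16 to 1.50 and the B cell genes from 1.01 to 1.17, while the Ctrl ratios of the lineages overlap.

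Further genes of these pathways came from lists that hold none of the 32 genes. Among all genes tested, 12.0% were called higher and 13.8% lower. Of 24 other genes of the B cell receptor pathway, 14 were higher, 2 lower and 8 did not pass (median log2 fold change 0.31). The highest of them were *Lilrb4a*, an inhibitory receptor that myeloid cells carry as well (log2 fold change 1.11, limma adjusted p = 0.000485), *Tnfrsf13c*, the receptor of the B cell survival factor BAFF (0.81, limma adjusted p = 0.00133), and *Pik3ap1*, the adaptor BCAP (0.59, limma adjusted p = 0.00136). *Cd81*, a tetraspanin that many cell types carry (-0.38, limma adjusted p = 0.00426), and *Fcgr2b*, the inhibitory Fc receptor (-0.23, limma adjusted p = 0.0318), were lower. Of 17 other B lineage genes tested, 11 were higher and 0 lower, with a median of 0.48. They were led by *Fcrl1* (0.81, limma adjusted p = 0.00172), *Spib* (0.72, limma adjusted p = 0.000769) and *Fcmr*, the receptor for IgM (0.65, limma adjusted p = 0.000671).

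On the T cell side 9 of 27 other receptor pathway genes tested were higher and 0 lower (median log2 fold change 0.36). They were led by *Skap1*, an adaptor (0.60, limma adjusted p = 0.0190), *Ptprcap*, a partner of CD45 (0.59, limma adjusted p = 0.00363), and *Vav1*, an exchange factor that the B cell list holds as well (0.57, limma adjusted p = 0.00512). Of 27 other T lineage genes tested, 7 were higher and 0 lower, with a median of 0.31. Among those called were *Ccr7*, a chemokine receptor that guides lymphocytes into lymph nodes (0.73, limma adjusted p = 0.00377), and *Gimap3* (0.59, limma adjusted p = 0.00639). Of 15 brakes on receptor signalling, 5 were higher and 0 lower, with a median of 0.21. They were led by *Lax1* (0.61, limma adjusted p = 0.00734), *Dok3* (0.50, limma adjusted p = 0.00387) and *Ptpn22* (0.39, limma adjusted p = 0.0317). The counts of these lists stand beside 12.0% of all genes tested called higher and 13.8% called lower.

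The lymph node stroma and high endothelium markers had a higher summed FPKM in both cKO libraries, while most of them did not pass one by one. Of 7 genes tested, 3 were higher (*Ccl19*, *Tnfsf11* and *Cr2*, which the B cell receptor pathway list holds as well) and 0 lower. The sum of the 8 genes was 344 and 402 in Ctrl and 447 and 584 in cKO, with cKO replicate 2 again the highest library. *Ccl21a*, the largest part of this sum, was at 166.42 and 229.36 in Ctrl and 247.61 and 349.34 in cKO and did not pass (limma adjusted p = 0.0596), and *Cxcl13* was at 52.03 and 49.77 in Ctrl and 40.41 and 47.26 in cKO (limma adjusted p = 0.0959). The B cell sum divided by this stroma sum was 0.973 and 0.914 in Ctrl and 1.13 and 0.973 in cKO, and the T cell sum divided by it was 0.560 and 0.496 in Ctrl and 0.572 and 0.578 in cKO. The amount of lymph node in each sample is not stated, and its part in the differences was not tested. The sum of 8 natural killer cell markers was 31.3 and 30.2 in Ctrl and 35.1 and 44.3 in cKO. Only 1 of the 8 genes (*Prf1*) passed as higher and 0 as lower, beside a background share of 12.0% higher. Both cKO libraries lay above both Ctrl libraries in 4 of the 8 genes and below them in 1, and 3 overlapped. *Nkg7*, the largest part of this sum, was at 13.57 and 13.42 in Ctrl and 14.92 and 21.86 in cKO. It did not pass (limma adjusted p = 0.0993). The sum of 8 neutrophil markers was 28.2 and 25.4 in Ctrl and 39.3 and 36.6 in cKO, with 5 of 6 genes tested higher (*Csf3r*, *Cxcr2*, *Retnlg*, *S100a8* and *S100a9*) and 1 (*Mmp9*) lower. Sums of plasma cell markers (46.0 and 50.6 in Ctrl, 39.2 and 50.7 in cKO) and dendritic cell markers (31.8 and 32.2 in Ctrl, 27.0 and 31.8 in cKO) were not above Ctrl in both cKO libraries, and 1 plasma cell gene was higher (*Mzb1*) and 1 lower (*Jchain*), as were 1 dendritic cell gene (*Itgax*) and 1 (*Cd209a*). Of 12 macrophage markers, 2 were higher (*Cd68* and *Fcgr1*) and 5 lower (*C1qa*, *C1qc*, *Cd163*, *Csf1r* and *Mrc1*), and of 4 lymphatic endothelial genes tested 1 (*Lyve1*) was lower. No gene of these lists was at 0 in all 4 libraries, and *Ly6g*, a neutrophil marker, was listed at 0 in Ctrl replicate 2 and cKO replicate 2. The genes of the marker lists were named after their values were seen.

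**Figure D4:**
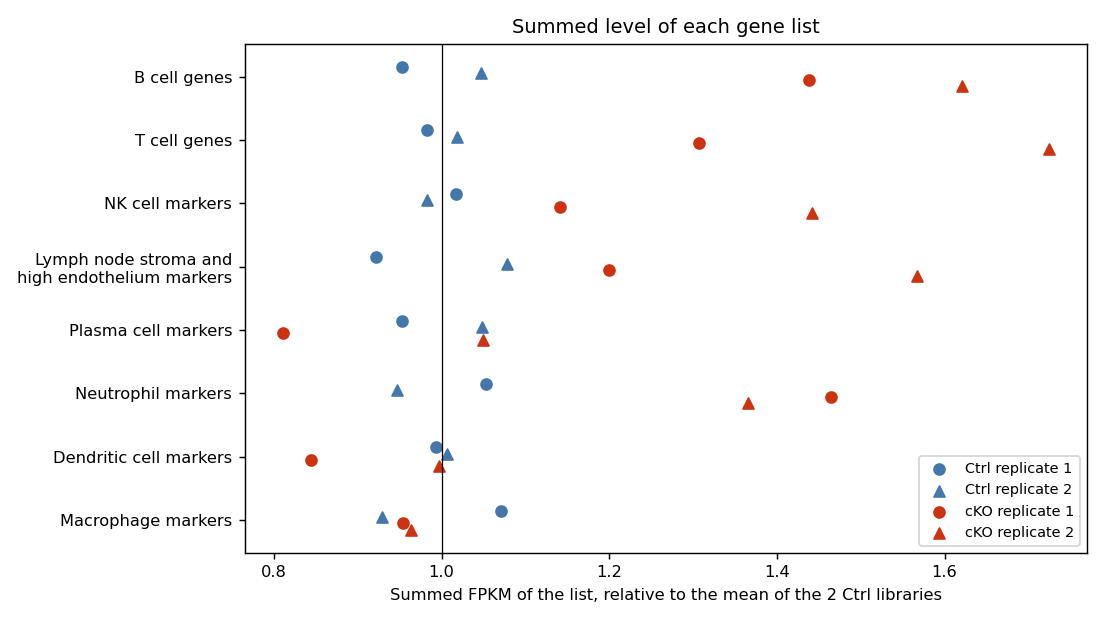
The summed FPKM of each list in each library, divided by the mean of the 2 Ctrl libraries, with a line at 1. Blue marks are Ctrl and red marks cKO libraries, circles are replicate 1 and triangles replicate 2, and marks are set apart vertically for legibility. The B cell, T cell, natural killer, lymph node stroma and neutrophil lists have both cKO libraries above both Ctrl libraries, and the macrophage, dendritic and plasma cell lists do not.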

How the data were processed

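The authors sequenced polyadenylated RNA as 50-base single-end reads (BGISEQ-500) and deposited FPKM per gene and library. The submitters' processing notes name HISAT2 2.0.4, RSEM 1.2.12 and mm10, and no scaling between libraries is stated. Samples were grouped by title (Control as Ctrl, Deficient as cKO). The paper's methods describe male mice kept for a week at 16°C and then at 4°C.

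The 12658 genes whose FPKM averaged 1 or more in the 4 libraries entered a limma fit (version 3.58.1, R 4.3.3, eBayes with a trend) of log2(FPKM + 1) on genotype, with Benjamini-Hochberg adjustment over all of them and a threshold of 0.05. This scale understates the change of low genes. The script was tested on simulated data. The values are not read counts, so no count test was run. Depth was estimated from the FPKM steps of 319 short RNA genes (at most 400 bases, up to 6 reads), where 84.5% to 90.8% of values came out whole within 0.1 reads. Counting errors cover counting only. The intervals of log2 fold changes come from the limma fit and rest on the spread between libraries. Lists are described by counts and medians. All 32 members are named, with the 3 called genes of largest absolute log2 fold change per direction for pathway lists, of which 1 is not reported here. The members and lists were chosen with earlier results of these data known. Promoters came from RefSeq, and positions from GRCm38.p6. The alternatives were another pseudocount, filter, scaling or variance model, a replicate block, an added fold threshold, and each library left out. The table holds no column of a comparison between genotypes. Other tables and plots were made in Python 3.11.15 (pandas 2.3.3, numpy 2.4.6, matplotlib 3.10.9).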

Additional observations from a re-analysis of the deposited data

How the results depend on the processing

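The 27 calls became 28 with a pseudocount of 0.1, 28 of 30 genes tested with a mean FPKM of at least 5, 28 with median-of-ratios scaling, 29 with quantile normalization and 26 without a trend. They became 6 with no filter on low values, where 19030 genes were tested and 21 members were lost. All 6 were B cell genes, and 0 T cell genes passed in that fit. Its median log2 fold changes were those of the main fit, 0.51 for B cell and 0.56 for T cell genes. Under an added log2 fold change threshold of 1 the 27 calls became 0, where 0.640% of all genes tested were called higher. Leaving out each library in turn gave 3 to 31 calls (3 without Ctrl replicate 1, 13 without Ctrl replicate 2, 31 without cKO replicate 1 and 23 without cKO replicate 2), with the lone remaining library assumed to vary like the other genotype. Over all genes tested the calls fell from 3269 to 877, 1531, 2165 and 2429 in these fits, and to 1762 with no filter. *Cd79a*, *Cd79b* and *Syk* passed in every one of these fits except under the fold threshold. The number of members called lower was 0 in every alternative. Only *Cd247* changed direction, to -0.18 without cKO replicate 2 (adjusted p = 0.192). Over the left-out libraries the median log2 fold change ranged from 0.45 to 0.58 for B cell, 0.38 to 0.73 for T cell and 0.36 to 0.69 for shared genes, and without *Cd4* that of the T cell genes was 0.57. With the replicate block 29 members were called. The differences between replicates of Ctrl and cKO correlated at r = 0.0148 over 12658 genes. A correlation over all genes cannot show whether samples of the same number were paired in some other way. Over single genes and all alternatives, 274 values kept their direction and their side of the threshold, 64 lost it, 11 gained it and 1 turned. The cause of the lost calls was not tested. Depth limits the lowest genes most, as with the 82 reads of *Vpreb3*.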
